A study of Mus musculus with 6 samples.

Results

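The 6 genes described here are markers of the epididymis and of epithelium, read here in RNA sequencing of mouse iWAT, the inguinal white fat that lies under the skin. They are Akr1b7, Crisp1, Serpina1f, Epcam, Cdh1 and Elf5, found by symbol in the deposited table of normalized gene counts, and they make up 6 of its 15176 genes. They were chosen by their normalized values in these libraries, for standing high in 1 of them, so their difference between genotypes is given as a description with no test. The study compared 2 Steap4AKO libraries (replicates 2 and 3), from mice lacking the metalloreductase gene Steap4 in adipocytes, with 4 Steap4f/f libraries (replicates 1, 2, 5 and 6), from mice with the floxed gene. All mice ate a high-fat diet. The labels name neither age nor Cre driver, nor do they say whether each library is 1 animal, so the p-values measure only the spread between these samples, which may be technical.

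Before any result, 1 library has to be set apart. Steap4AKO replicate 2 was over 2-fold above every other library in 973 of 15006 genes tested (6.48%), while this share was 0.193% for Steap4AKO replicate 3 and 0.986, 0.247, 0.133 and 0.793% for Steap4f/f replicates 1, 2, 5 and 6. The depot on the label was not borne out there by Tbx15, a transcription factor of subcutaneous fat, which had a normalized value of 1.4, against 316.1 in Steap4AKO replicate 3 and 660.8 to 1330 in Steap4f/f. Hoxc9, another such factor, was less extreme with 122.7, against 315.4 in Steap4AKO replicate 3 and 444.5 to 550.0 in Steap4f/f. Hoxd10, also of that kind, had 27.2, inside the Steap4f/f range of 2.2 to 30.1. The depot of that library was not tested. The values of each column summed to 16573561 and 17979641 in Steap4AKO and to 18846321 to 20547925 in Steap4f/f. The targeted gene did not check the labels: Steap4 had 8313 and 8014 in Steap4AKO, against 17018, 9417, 8310 and 8851 in Steap4f/f. Fabp4, the fatty acid binding protein of adipocytes, was high throughout, with 98389 and 139970 in Steap4AKO, against 166490 to 235354 in Steap4f/f. The 4 Y-linked genes Ddx3y, Uty, Kdm5d and Eif2s3y reached at least 311.5 in each library.

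The epididymis is the coiled duct behind the testis in which sperm mature. Its lining is an epithelium that arises from the Wolffian duct, and its principal cells secrete proteins that coat passing sperm, many under androgen control. In male mice a large visceral fat pad is attached to it, whereas the inguinal pad lies under the skin and has no such duct. Epithelial cells in general are joined by cadherin and claudin junctions and carry keratins, which fat cells do not.

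The promoters of the 3 secretory genes and of Epcam are shown for the 3 markers with the highest values and 1 general epithelial marker, so that their start regions can be compared. They run from 250 bases before to 50 bases after the RefSeq start on GRCm38.p6 and are written 5′ to 3′ along the gene. Capitals mark any of 3 motifs sought on both strands: AGAACA, a half-site bound by steroid hormone receptors, TATAAA, the TATA box, and CACCTG, the E-box bound by Snail and ZEB factors. No 2 of these matches overlapped.
Akr1b7 (chr6:34412112-34412411, plus strand): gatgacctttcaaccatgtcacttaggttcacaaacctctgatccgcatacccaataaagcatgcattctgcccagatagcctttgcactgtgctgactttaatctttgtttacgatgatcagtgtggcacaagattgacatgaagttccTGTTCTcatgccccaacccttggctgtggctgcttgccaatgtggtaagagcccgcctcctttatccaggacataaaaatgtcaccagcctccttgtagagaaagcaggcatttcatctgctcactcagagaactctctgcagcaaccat
Crisp1 (chr17:40319158-40319457, minus strand): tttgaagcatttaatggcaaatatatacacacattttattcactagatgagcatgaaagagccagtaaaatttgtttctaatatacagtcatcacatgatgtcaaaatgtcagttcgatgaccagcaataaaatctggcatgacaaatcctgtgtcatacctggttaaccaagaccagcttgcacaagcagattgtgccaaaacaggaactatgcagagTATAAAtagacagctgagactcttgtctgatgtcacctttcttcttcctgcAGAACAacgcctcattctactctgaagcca
Serpina1f (chr12:103695480-103695779, minus strand): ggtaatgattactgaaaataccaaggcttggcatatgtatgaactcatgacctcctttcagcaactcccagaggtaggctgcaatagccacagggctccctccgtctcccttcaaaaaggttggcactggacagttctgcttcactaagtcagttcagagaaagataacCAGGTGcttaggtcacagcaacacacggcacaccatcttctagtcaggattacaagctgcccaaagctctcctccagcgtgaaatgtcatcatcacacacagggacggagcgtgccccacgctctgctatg
Epcam (chr17:87635729-87636028, plus strand): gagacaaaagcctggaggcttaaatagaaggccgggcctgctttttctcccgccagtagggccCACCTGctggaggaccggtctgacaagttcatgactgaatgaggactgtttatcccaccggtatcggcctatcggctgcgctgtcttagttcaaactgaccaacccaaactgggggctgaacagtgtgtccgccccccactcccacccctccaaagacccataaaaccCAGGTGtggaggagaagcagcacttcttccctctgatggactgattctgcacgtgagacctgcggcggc

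The receptor half-site stood once in Akr1b7, at -100 from the start base (counted as 0), and once in Crisp1, at 20, and 19% of the 32851 promoters in the RefSeq table hold it. Crisp1 had a TATA box at -31, which 13.6% of promoters hold. The E-box stood once in Serpina1f, at -81, and at -187 and -19 in Epcam, against 20.2% of promoters. The 2 Elf5 promoters in the table, not printed, held it at 4 places between them (-155, -112, -11 and 21). These matches are letters in a window and say nothing about binding. The G and C content was 47.0% in Akr1b7, 38.7% in Crisp1, 50.3% in Serpina1f and 57.0% in Epcam, against a median of 52.7% over all promoters in the table. A promoter was matched for 5 of the 6 genes.

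Akr1b7, Crisp1 and Serpina1f, the secretory genes, were high in Steap4AKO replicate 2 and at or near 0 in the other 5 libraries. Akr1b7 encodes an aldose reductase-like enzyme that is abundant in the vas deferens and also made in the adrenal gland and in stromal cells of fat. It lies on chromosome 6 (34412334 to 34423142, plus strand, GRCm38). Its level was a normalized value of 38528 in Steap4AKO replicate 2 and 0 in Steap4AKO replicate 3, against 0, 0, 0 and 3.2 in Steap4f/f replicates 1, 2, 5 and 6. Steap4AKO replicate 2 was thus the highest library and Steap4AKO replicate 3 among the lowest, so the groups overlapped. In replicate 2 it ranked 33 of all genes by value and made up 0.233% of the column, and per kilobase of exon it reached 30080, against 15830 per kilobase for the adipocyte hormone gene Adipoq in the same library.

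Crisp1 encodes a cysteine-rich secretory protein that principal cells of the epididymis place on sperm (chromosome 17, 40293758 to 40319207, minus strand). It had 8127 in Steap4AKO replicate 2 and 0 in Steap4AKO replicate 3, against 3.3, 2.0, 0 and 0 in Steap4f/f replicates 1, 2, 5 and 6. Serpina1f, a relative of the antitrypsin genes that is expressed in the epididymis, lies on chromosome 12 (103688044 to 103695529, minus strand). It had 3685 in Steap4AKO replicate 2 and was listed at 0 in Steap4AKO replicate 3 and in all 4 Steap4f/f libraries. The small values of Crisp1 and Akr1b7 elsewhere are close to the worth of a few reads, since the lowest value above 0 was 0.33 to 0.65 per library. For that reason no ratio of Steap4AKO replicate 2 to the other libraries is given for these genes, and the groups overlapped in each.

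**Figure D1:**
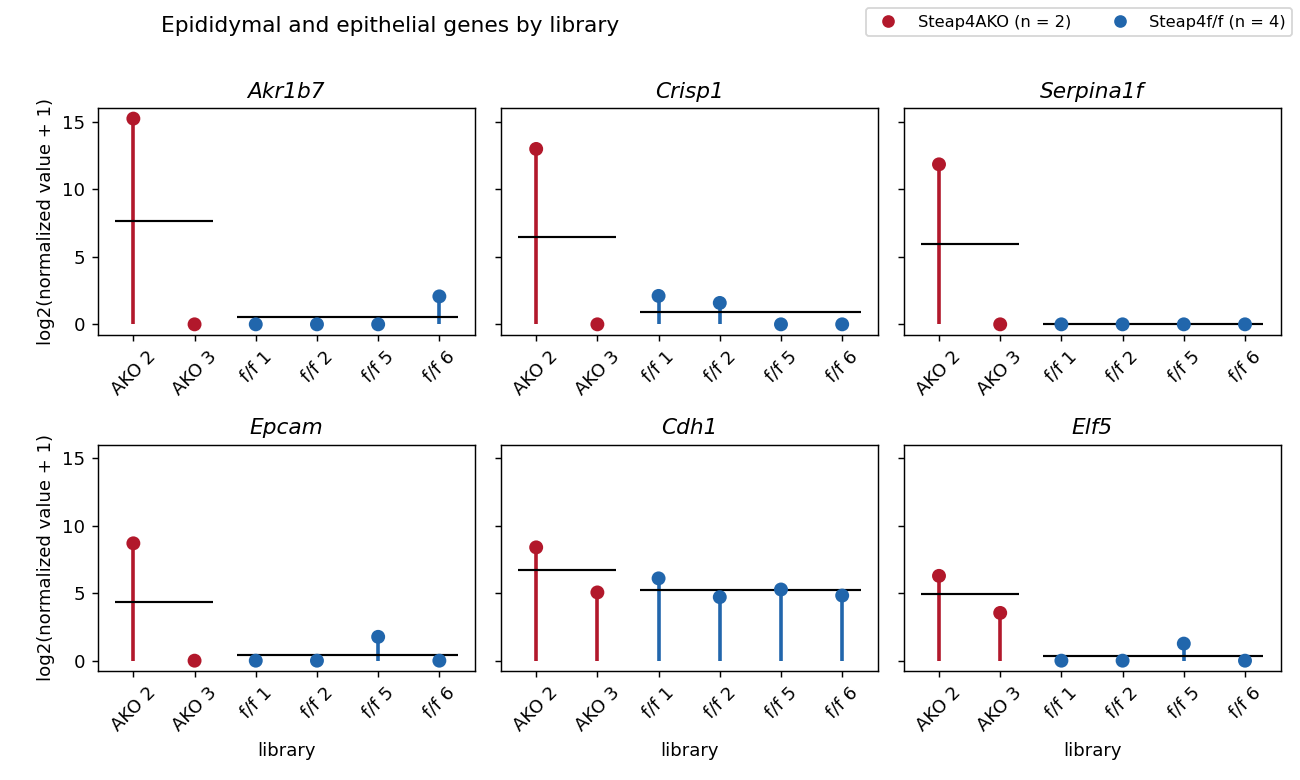
Each panel plots 1 gene as log2(normalized value + 1) on the y axis for the 6 libraries on the x axis, with red for Steap4AKO (n = 2), blue for Steap4f/f (n = 4) and a black line at each group mean. Steap4AKO replicate 2 was the highest library in all 6 panels, and Steap4AKO replicate 3 lay at 0 in 4 of them.

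Epcam, Cdh1 and Elf5 mark epithelium of many organs, and their levels were lower than those of the secretory genes. Epcam encodes an adhesion molecule of simple epithelia (chromosome 17, 87635979 to 87651129, plus strand). Its value was 412.0 in Steap4AKO replicate 2 and 0 in Steap4AKO replicate 3, against 0, 0, 2.4 and 0 in Steap4f/f replicates 1, 2, 5 and 6. Cdh1 encodes E-cadherin, the adhesion protein of epithelial junctions (chromosome 8, 106603351 to 106670246, plus strand), and differed from the others in having a measurable level in every library. It had 334.5 and 32.2 in Steap4AKO replicates 2 and 3, against 67.3, 25.1, 37.6 and 27.3 in Steap4f/f replicates 1, 2, 5 and 6. Steap4AKO replicate 2 was 4.97-fold above the highest other library, while Steap4AKO replicate 3 sat inside the Steap4f/f range.

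Elf5 encodes an ETS transcription factor of secretory epithelia, best known from the mammary gland (chromosome 2, 103411688 to 103450989, plus strand). It had 76.7 and 10.6 in Steap4AKO replicates 2 and 3, against 0, 0, 1.4 and 0 in Steap4f/f replicates 1, 2, 5 and 6. Of the 6 genes it was the 1 whose groups did not overlap, where 14.1% of all genes tested had both Steap4AKO libraries above every Steap4f/f library. Per kilobase of exon the order in Steap4AKO replicate 2 ran from Akr1b7 through Crisp1 (5739), Serpina1f (1157), Epcam (188), Cdh1 (73.1) and Elf5 (13.1).

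All 6 genes passed the filter of a mean value of at least 10, but 5 of them did so only through Steap4AKO replicate 2, and Cdh1 was the 1 that would have passed without it. The log2 differences, Steap4AKO minus Steap4f/f on log2(value + 1), were 7.10 for Akr1b7, 5.57 for Crisp1, 5.92 for Serpina1f, 3.91 for Epcam, 1.50 for Cdh1 and 4.59 for Elf5. Without Steap4AKO replicate 2 they were -0.52, -0.93, 0, -0.44, -0.17 and 3.22 in the same order. For 5 of the 6 genes the difference was thus 0 or below without that library, and for Elf5 it was not. In bulk tissue, fewer cells of a type and less RNA per cell cannot be told apart.

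Other products of the male tract that reach the table were high in the same library. Of 39 epididymal secretory genes listed, 9 were in the table, and the other 30 were not analysed here. Apart from Crisp1 and Serpina1f, 4 of them were listed at 0 everywhere except in Steap4AKO replicate 2: Defb42 with 980.3 and Defb30 with 99.7, which encode beta-defensins, Spink8, a protease inhibitor, with 768.5, and Adam7, a membrane protein of epididymal epithelium, with 147.1. Cd52, a surface antigen that the epididymis passes to sperm and that lymphocytes also carry, had 2088 and 132.8 in Steap4AKO replicates 2 and 3, against 135.4, 126.7, 159.2 and 96.7 in Steap4f/f replicates 1, 2, 5 and 6. The summed value of the 7 list genes outside the 6 markers was 4748 and 207.7 in Steap4AKO, against 171.9 to 237.1 in Steap4f/f. Ceacam10, a seminal vesicle gene, had 36.7 in Steap4AKO replicate 2 and was listed at 0 in the other 5 libraries.

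Transcription factors of Wolffian duct epithelium showed the same split. Pax2 had 151.9 and Pax8 had 257.1 in Steap4AKO replicate 2, and the kidney and Wolffian duct cadherin Cdh16 had 303.5. All 3 were listed at 0 in Steap4AKO replicate 3 and in every Steap4f/f library. Emx2, a homeobox gene of the same list, did not follow, with 177.4 and 35.6 in Steap4AKO replicates 2 and 3, against 264.8, 94.3, 64.6 and 45.6 in Steap4f/f replicates 1, 2, 5 and 6. Atp6v0d2, a proton pump subunit of epididymal clear cells that macrophages and osteoclasts share, had 1155 and 54.5 in Steap4AKO, against 38.0 to 70.9 in Steap4f/f. Of the other clear cell genes, Atp6v0a4 had 28.8 and 2.0, against 0 to 5.3. Car12 was not over 2-fold above every other library in replicate 2, and Atp6v1c2 only just was, at 2.015-fold. Car12 had 54.4 and 39.7, against 0 to 8.0, and Atp6v1c2 had 26.8 and 13.3, against 1.0 to 8.2.

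General epithelial genes were the most numerous in the table, with 31 of 38 listed. Cldn8, a tight junction claudin, Ap1m2, an adaptor subunit for sorting in polarised cells, and Dsg2, a desmosomal cadherin, had 152.0, 102.4 and 58.1 in Steap4AKO replicate 2 and were listed at 0 in the other 5 libraries. Elf3, an epithelial ETS factor, had 127.4 there and at most 1.0 elsewhere, and Esrp1, an epithelial splicing factor, had 90.7 and at most 1.9 elsewhere. The keratins of simple epithelium, which mesothelium carries too, were Krt8 with 760.6 and 6.0 in Steap4AKO replicates 2 and 3, against 0 to 11.6 in Steap4f/f, and Krt18 with 478.8 and 2.0, against 0 to 8.5. Krt19 had 560.7 and 4.6, against 13.5 to 79.5 in Steap4f/f. Not every list gene was highest there: Grhl1, an epithelial transcription factor, had 143.6 and 72.8 in Steap4AKO, against 87.6 to 188.8 in Steap4f/f.

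**Figure D2:**
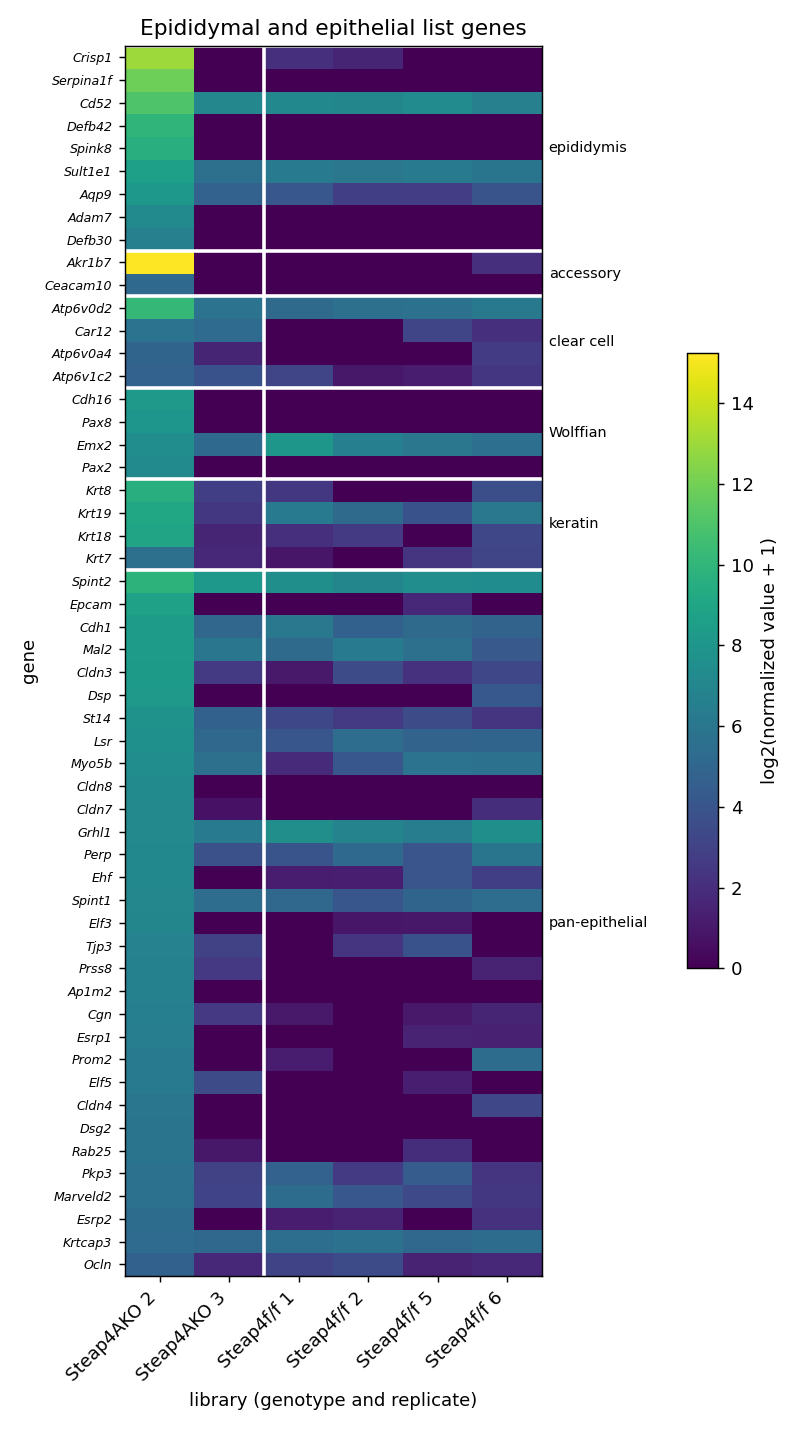
Colour gives log2(normalized value + 1) for genes of the epididymal, accessory gland, clear cell, Wolffian, keratin and pan-epithelial lists (rows) in each library (columns, Steap4AKO left of Steap4f/f). The first column, Steap4AKO replicate 2, is the brightest in most rows, and Emx2 and Grhl1 are among the exceptions.

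Counted over these lists, 49 of 103 genes other than the 6 markers were in the table and 43 passed the filter. Of the 43, Steap4AKO replicate 2 was over 2-fold above every other library in 36, against 6.48% of all genes tested. Many of them could enter the table or pass the filter only because this library was high. Among the 18 that reach a mean of 10 in the other 5 libraries alone, it was over 2-fold above in 12, against 668 of 14606 such genes (4.57%). None of the 49 was over 2-fold above every other library in any of the other 5 libraries. For 42 of the 49 this was fixed beforehand, since Steap4AKO replicate 2 was itself over 2-fold above the rest. Over those 18 the median log2 difference from the Steap4f/f mean was 2.66 in Steap4AKO replicate 2 and 0.07 in Steap4AKO replicate 3, where the medians over the 14606 genes were 0.00 and 0.01. The other 25 of the 43 passed the filter only through Steap4AKO replicate 2, and no median is given over them.

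As a genotype difference none of this passed the test. By limma with Benjamini-Hochberg adjustment, 0 of the 43 list genes were higher and 0 lower at an adjusted p of 0.05, where 0.04% of all genes tested were higher and 0.433% lower, and 8 of the 43 (18.6%) had an unadjusted p under 0.05, beside 18.1% of all genes tested. Both Steap4AKO libraries lay above every Steap4f/f library in 6 of the 43, beside the 14.1% of all genes. Of the 43, 25 passed the filter only through Steap4AKO replicate 2, so these counts are no result about the list. Where the 2 Steap4AKO libraries lay far apart, the spread within the genotype was wide, so a lack of calls says little. With either Steap4AKO library left out, the other alone stood for the genotype. Counts of list genes called in those fits are not read as a result.

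Cell types that could carry these epithelial genes gave the following levels, and their part in the result was not tested. Mesothelium, the lining of visceral fat, was high in the same library: all 9 measured mesothelial genes were over 2-fold above every other library in Steap4AKO replicate 2, beside 6.48% of all genes tested, with a summed value of 2393 and 69.4 in Steap4AKO, against 97.3 to 559.7 in Steap4f/f. Upk1b, Wt1, Bnc1 and Nkain4 passed the filter only through that library, and the 5 others stand beside 4.57% of genes with a mean of 10 without it. Its marker Upk3b had 781.0 and 0 in Steap4AKO replicates 2 and 3, against 2.2, 0, 1.2 and 167.1 in Steap4f/f replicates 1, 2, 5 and 6. Steap4f/f replicate 6 was thus the highest of the other libraries for Upk3b, and it held Akr1b7 at 3.2 with Crisp1, Serpina1f, Epcam and Elf5 at 0. It was also the highest of the other libraries for 3 of 4 simple keratins and for 8 of 28 general epithelial genes outside the 6 markers. Among these were Krt8 with 11.6 and Krt18 with 8.5. The same held for 13 of 16 skeletal muscle and 7 of 9 smooth muscle genes. It held for 0 of 7 epididymal secretory genes outside the markers and 0 of 5 Wolffian duct genes. The share over all genes was not counted, so these counts are not read as a result. Smooth muscle, which also wraps the epididymal duct, had 5 of 9 genes over 2-fold above, all 9 with a mean of 10 without that library, beside the same 4.57%. Actg2 had 3493 and 13.1 in Steap4AKO, against 13.0 to 66.7 in Steap4f/f, and Cnn1 had 4471 and 36.7, against 29.7 to 130.2. Not all followed: Des had 3212 and 1145, against 3198 to 17681, and Synpo2 had 8214 and 6020, against 1810 to 9868. The summed smooth muscle value was 52717 and 14141 in Steap4AKO, against 10463 to 36238 in Steap4f/f.

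Skin and mammary gland lie next to the inguinal pad. Of 16 basal and skin genes 5 were in the table and none was over 2-fold above in Steap4AKO replicate 2, with a summed value of 161.1 and 209.8 in Steap4AKO, against 178.3 to 275.9 in Steap4f/f. The basal epithelial factor Trp63 had 52.3 and 63.4 in Steap4AKO, against 73.1 to 112.3 in Steap4f/f. From the mammary list Prlr, the prolactin receptor, was in the table beside Elf5, with 296.7 and 112.6 in Steap4AKO, against 32.2 to 101.9 in Steap4f/f, and 11 of its 13 genes were not analysed here. From the list of sperm, germ cell, Sertoli and Leydig genes 4 of 19 were in the table, and 1 of the 4 was over 2-fold above in Steap4AKO replicate 2: Sycp3, a meiotic chromosome protein, had 761.2 and 74.0 in Steap4AKO, against 56.7 to 139.6 in Steap4f/f. The sperm acrosome genes Spaca1 and Zpbp had 147.6 and 91.8 and 24.9 and 9.9 in Steap4AKO, against 71.0 to 157.7 and 1.1 to 17.9 in Steap4f/f. Star, the cholesterol carrier of Leydig cells, had 50.6 and 27.7 in Steap4AKO, against 25.0 to 46.6 in Steap4f/f. Skeletal muscle went the other way: its 16 genes summed to 2283 and 19577 in Steap4AKO, against 153778 to 833821 in Steap4f/f, and 7 of the 16 were lower in limma at an adjusted p of 0.05, beside 0.433% of all genes. Those calls were not stable, since 1 gene of the whole table was called without Steap4AKO replicate 2 or without Steap4f/f replicate 2, 5 or 6. The 6 subcutaneous depot genes in the table summed to 212.1 and 1221 in Steap4AKO, against 1924 to 2500 in Steap4f/f, with 0 called by limma.

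**Figure D3:**
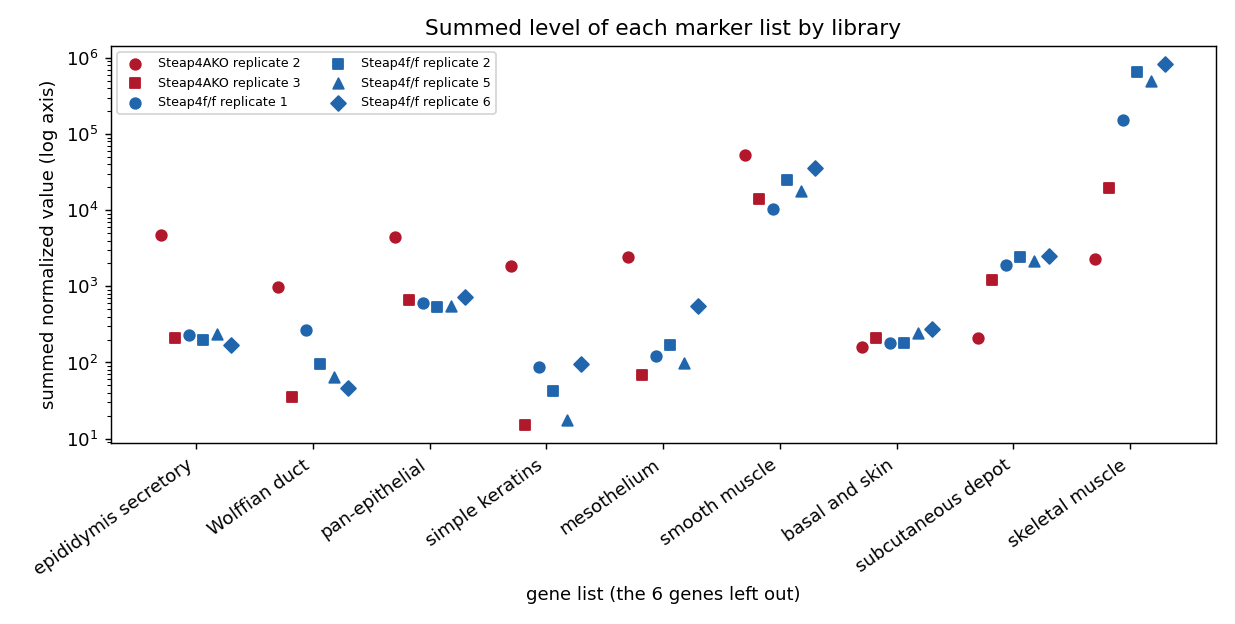
Points give the summed normalized value of each marker list (x axis, the 6 genes left out) in each library on a log y axis, with Steap4AKO in red and Steap4f/f in blue. Steap4AKO replicate 2 lies highest for the epididymal, Wolffian, epithelial, keratin, mesothelial and smooth muscle lists and lowest for the basal and skin, subcutaneous and skeletal muscle lists.

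Relatives in the same gene families give a check on how reads were shared between copies. Akr1b7 is 80.6% identical to Akr1b10 over the aligned transcript and shares with it a longest identical run of 59 bases. Akr1b10 had 561.0 and 418.2 in Steap4AKO, against 455.3 to 551.5 in Steap4f/f, and Akr1b8 had 427.0 and 451.9, against 436.6 to 584.1. The highest library was 1.34-fold above the lowest for Akr1b10 and 1.37-fold for Akr1b8, genes that lie 15.4 and 43.9 kilobases from Akr1b7. Crisp1 is 88.6% identical to Crisp3, which was not analysed here, so reads of these 2 could have been divided. Crisp2, at 57.9% identity, had 22.2 and 15.5 in Steap4AKO, against 0 to 31.2 in Steap4f/f.

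Serpina1f is 51.8 to 53.2% identical to the 5 antitrypsin genes of its cluster, and these did not follow it. Serpina1b had 64.1 and 160.2 in Steap4AKO replicates 2 and 3, against 5.4 to 11.2 in Steap4f/f, and Serpina1c had 55.9 and 141.8, against 2.0 to 4.7. Both were highest in Steap4AKO replicate 3, where Serpina1f was listed at 0. Neither passed (limma, adjusted p = 0.0551 for Serpina1b and 0.0527 for Serpina1c). These antitrypsin genes may have exchanged reads, and their likeness to each other was not measured here.

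Within 200 kilobases of the 6 genes the table held 22 other genes, of which Steap4AKO replicate 2 was over 2-fold above every other library in 4, beside 6.48% of all genes tested. They were Gm13857 and Cald1 near Akr1b7, Cdh3 near Cdh1 and Ehf near Elf5. Of these Gm13857, Cdh3 and Ehf passed the filter only through that library, so that of the 19 neighbours with a mean of 10 in the other 5 libraries alone it was 1, Cald1, beside the 4.57% of such genes. Cdh3, the P-cadherin gene 46.1 kilobases from Cdh1, had 170.8 and 1.0 in Steap4AKO, against 0 to 6.3 in Steap4f/f. Ehf, an epithelial ETS gene 108.4 kilobases from Elf5, had 135.6 and 0 in Steap4AKO, against 1.3 to 15.5 in Steap4f/f. Gm13857, a pseudogene on the opposite strand that overlaps Akr1b7, had 109.6 in Steap4AKO replicate 2 and was listed at 0 elsewhere. No source used here states whether the counting used strand, so its reads and those of Akr1b7 cannot be told apart.

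Likeness of profile was measured as the Euclidean distance between centred log2(value + 1) values over the 6 libraries, with 3 nearest genes named for each marker. Nearest to Akr1b7 were Serpina1f (3.28), Crisp1 (4.03) and Defb42 (4.82), nearest to Crisp1 were Serpina1f (2.10), Ptgs2 (2.67) and Defb42 (2.95), and nearest to Serpina1f were Defb42 (1.74), Spink8 (2.06) and Crisp1 (2.10). Ptgs2, the inducible cyclooxygenase, had 4786 and 1.0 in Steap4AKO, against 4.2 to 10.1 in Steap4f/f. Nearest to Epcam were Ptgds (1.57), Cdh16 (1.57) and Gm9573 (1.58). The profile of Cdh1 was nearest to Ripor3 (0.59), Stac2 (0.63) and Tlr13 (0.73), and that of Elf5 to Myo7b (0.52), Cfi (1.09) and Trank1 (1.22). All of these distances rest mainly on the gap between 1 library and the other 5. Among the 6 markers themselves the closest pair was Crisp1 and Serpina1f (2.10) and the farthest was Akr1b7 and Cdh1 (10.89).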

How the data were processed

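Per the labels, 2 Steap4AKO and 4 Steap4f/f libraries were sequenced from iWAT RNA. The submitters' processing notes list DESeq2 1.12.4, R 4.2.0, RSEM 1.3.3 and STAR 2.7.0e, without roles, and the genome as GRCm38 or mm10. The deposited values are a signal, gene counts that the authors normalized with DESeq2, as the table is named. Low values were not whole reads (34.4 to 59% lay within 0.1 of a multiple of the best step), so a count test was not possible, and the depth is unknown. The lowest row reached 11.8 in its highest library. RSEM estimates divide reads between similar genes, so genes with copies are uncertain.

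Symbols came from GENCODE M21, for 15125 genes, and 51 had none. Genes with a mean of at least 10 (15006) entered a limma fit (version 3.58.1 in R 4.3.3) of log2(value + 1) with a variance trend, 2 groups and no covariate, two-sided, with Benjamini-Hochberg adjustment over all genes tested. The fit was tested on simulated data. Transcripts were aligned with Biopython 1.88, locally, using the longest protein-coding transcript of each gene. Promoters are from RefSeq.

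The members and gene lists were chosen with earlier results of these data known. The genes named are the 6 markers, of each list those called (up to 4), those highest in Steap4AKO replicate 2 relative to the other libraries (up to 6) and those with the highest means (up to 3), their relatives, and the nearest profiles; the chromosomal neighbours, Adipoq, Steap4 and the Y-linked genes stand outside this and were chosen after their values were seen. Not all genes that the rule gave are reported here. Alternatives were other pseudocounts, filters, scalings, variance settings and each library left out.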

Additional observations from a re-analysis of the deposited data

Results flagged for a closer look

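Among the 66 genes whose Steap4f/f values were looked at, 14 had 1 Steap4f/f library farther from the other 3 than Dixon's 95% limit for 4 samples allows, where chance flags about 1 in 20 groups of normally spread values. That rate does not apply to 5 of the 14 (Akr1b7, Epcam, Elf5, Cfi and Bnc1), in which 3 libraries were at 0 so that any value above 0 passes the limit. In Steap4f/f replicate 6 these were Upk3b (167.1), Wt1 (13.8) and Bnc1 (9.5), all mesothelial genes, with Akr1b7 (3.2), Trp63 (112.3) and a low Krt10 (26.5). Steap4f/f replicate 5 stood apart for Epcam (2.4), Elf5 (1.4), Cfi (0.9) and Serpina1c (4.7). The value of Steap4 (17018) and those of Ptgs2 (10.1) and Serpina1e (12.1) stood apart in Steap4f/f replicate 1, and Crisp2 (31.2) in replicate 2. Values under 5 are near the worth of a few reads. Ptgds, Myo7b and Upk1b likewise stood above 0 in only 1 Steap4f/f library but are not among the 14. The 14 are thus not every such gene named here.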

How the results depend on the processing

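The number of genes called over the whole table was 71 and was not stable: it was 1 with a pseudocount of 0.5, with a mean of at least 50 or with a robust variance prior, 123 with a pseudocount of 5 and 119 with array weights. Leaving out 1 library gave 1 to 821 genes, with 821 without Steap4AKO replicate 3, 238 without Steap4f/f replicate 1 and 1 without each of the others. Called list genes numbered 0 under every setting with all libraries, and 0 to 25 with 1 library left out, with 25 only without Steap4AKO replicate 3. Without Steap4AKO replicate 3, Steap4AKO replicate 2 alone stood for the genotype, and many list genes passed the filter only because it was high. The 25 and the 821 are thus not read as a result. Nor are the counts without Steap4AKO replicate 2, where Steap4AKO replicate 3 stood alone. With a pseudocount of 5 the log2 difference was 2.74 for Elf5, 6.28 for Akr1b7, 5.03 for Crisp1 and 4.76 for Serpina1f. With 1 library left out the log2 differences ran from -0.52 to 14.72 for Akr1b7, -0.93 to 12.06 for Crisp1, 0 to 11.85 for Serpina1f, -0.44 to 8.25 for Epcam, -0.17 to 3.17 for Cdh1 and 3.22 to 5.96 for Elf5. Each lowest value was without Steap4AKO replicate 2 and each highest without Steap4AKO replicate 3. List genes over 2-fold above every other library in Steap4AKO replicate 2 numbered 42 of 49, many of which were kept only because this library was high. Among the 18 with a mean of 10 in the other 5 libraries it was 12, against 4.57% of all such genes. Over the 49, settings chosen after seeing the data gave 36 at 4-fold and 40 with a pseudocount of 5. They gave 44 after scaling to the same total and 42 to 44 with another library left out. No share over all genes is given for these settings. The cause of these shifts was not tested. No paired analysis was possible because the groups share fewer than 2 replicate numbers.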
